A study of Mus musculus with 12 samples.

Results

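The genes described here are 42 members of the ER stress and integrated stress response programmes, out of 53647 genes counted in each library. They were chosen by name, but with earlier results of these data known. The members were divided into 20 ATF4 and amino acid genes and 22 ER chaperone and unfolded protein response (UPR) genes. All 42 were found in the files, and all passed the filter on low counts that left 14863 genes for testing. The series holds 12 mouse RNA-seq libraries in 6 groups of 2, numbered preparation 1 and preparation 2. uniSTING is named in the series title as a mimic of STING, an ER-resident adaptor that switches on type I interferon genes. Libraries labelled DC2.4, an immortalised mouse dendritic cell line, and libraries labelled 4T1, a mouse mammary tumour line, were given uniSTING mRNA or, as Mock, mRNA for the fluorescent protein EGFP. Further libraries labelled DC2.4 were exposed for 24 h to extracellular vesicles collected from 4T1 cells that had received uniSTING (EXOuniSTING) or Mock (EXOmock). The DC2.4 cells carry the genotype label WT. Each label names a single cell line. The labels do not say which mRNA libraries were transfected with the TransIT reagent and which with SS-OP lipid nanoparticles. No time is given for the mRNA groups. An untreated group was not analysed here, so every control carried mRNA or vesicles.

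In the integrated stress response, the kinases PERK, GCN2, PKR and HRI phosphorylate the translation factor eIF2, which lowers protein synthesis in general and favours translation of the transcription factor ATF4. ATF4 and its partners switch on genes for amino acid uptake, amino acid synthesis and tRNA charging, and, when stress lasts, CHOP (Ddit3). In the unfolded protein response, the sensors IRE1 (Ern1), ATF6 and PERK (Eif2ak3) act through spliced XBP1, cleaved ATF6 and ATF4 to raise ER chaperones, disulfide isomerases and the machinery of ER-associated degradation. STING itself resides in the ER and leaves it when activated.

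The promoter sequences near the start site were searched for exact letters that these factors are known to read. RefSeq promoter windows (250 bases before to 50 bases after the start site, build GRCm38.p6, whereas the counts used GRCm39) were found for 37 of the 42 members. The ER stress element (ERSE; CCAAT, 9 bases of any kind, CCACG, on either strand) was in the window of 8 of 19 ER chaperone and UPR genes, or 42.1%, and of 0 of 18 ATF4 and amino acid genes. Of all 27025 genes with a window, 37 held it, or 0.137%. Since the lists were chosen by name for these pathways and are part of all genes, these shares are a description and no test. These are the matches, with the element in capitals, 20 bases on each side, and each sequence written in the direction of its gene; a match on the opposite strand reads CGTGG, 9 bases, ATTGG.
Hspa5 (chr2:34772005-34772063, plus strand): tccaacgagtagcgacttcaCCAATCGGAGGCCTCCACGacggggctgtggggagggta
Hsp90b1, nearer (chr10:86705513-86705571, minus strand): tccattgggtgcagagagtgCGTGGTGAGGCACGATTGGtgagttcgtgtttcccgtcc
Hsp90b1, farther (chr10:86705618-86705676, minus strand): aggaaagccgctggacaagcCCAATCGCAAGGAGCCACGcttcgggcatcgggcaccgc
Calr (chr8:84847055-84847113, minus strand): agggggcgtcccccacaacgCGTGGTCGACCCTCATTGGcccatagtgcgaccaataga
Canx (chr11:50325780-50325838, minus strand): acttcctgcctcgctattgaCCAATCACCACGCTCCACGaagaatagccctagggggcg
Pdia6 (chr12:17266471-17266529, plus strand): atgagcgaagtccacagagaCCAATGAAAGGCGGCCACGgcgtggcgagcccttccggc
Dnajc3 (chr14:118937807-118937865, plus strand): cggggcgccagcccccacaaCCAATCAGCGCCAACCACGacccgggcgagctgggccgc
Creld2 (chr15:88819500-88819558, plus strand): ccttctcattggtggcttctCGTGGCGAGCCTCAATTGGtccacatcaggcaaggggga
Syvn1 (chr19:6046512-6046570, plus strand): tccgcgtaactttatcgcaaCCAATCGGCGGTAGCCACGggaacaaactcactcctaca

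The core of the CARE element read by ATF4 dimers (TGATGNAA, on either strand, where N is any base) was in the window of 5 of 18 ATF4 and amino acid genes, or 27.8%. It was in that of 1 of 19 ER chaperone and UPR genes, or 5.26%, against 4.51% of all genes. The genes were Asns, Atf3, Chac1, Slc1a4 and Trib3, and, in the other list, Herpud1. No member held both this core and an ERSE, and the core of the UPR element (TGACGTGG, on either strand) was in 0 members against 0.714% of all genes. A match describes these letters only. Other forms of the elements, and sites outside the window, were not searched, so a gene without a match may hold them. The cores that lie wholly upstream, again in capitals, were as follows; TTGCATCA is the core on the opposite strand.
Atf3 (chr1:191183416-191183463, minus strand): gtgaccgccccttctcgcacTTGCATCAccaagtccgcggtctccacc
Chac1 (chr2:119351029-119351076, plus strand): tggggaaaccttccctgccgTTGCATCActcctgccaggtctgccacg
Asns (chr6:7693210-7693252, minus strand): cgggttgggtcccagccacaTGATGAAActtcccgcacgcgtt
Herpud1 (chr8:94386297-94386344, plus strand): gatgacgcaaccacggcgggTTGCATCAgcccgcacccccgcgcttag

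Libraries held 14059040 to 25975658 counts in genes, so that 3 counts correspond to 0.115 to 0.213 CPM, counts scaled to a common library total. The markers went against the cell labels of the mRNA groups. A sum of 20 epithelial markers was 6001 ± 46.4 CPM (SD, n = 2) in DC2.4 Mock and 166 ± 0.236 in 4T1 Mock, and a sum of 20 leukocyte markers was 180 ± 12.03 and 10961 ± 6.26. Nearly all of the epithelial sum in 4T1 Mock lay in St14, at 161 ± 4.38 CPM. Epcam had 5041 to 7971 counts in the mRNA libraries labelled DC2.4 and 0 to 11 counts in all others, whereas Ptprc (CD45) had 0 to 19 and 4339 to 8490. The vesicle groups had leukocyte sums of 15690 ± 72.3 CPM with EXOmock and 13182 ± 547 with EXOuniSTING, and epithelial sums of 138 ± 6.73 and 148 ± 2.09. Libraries labelled DC2.4 thus carried epithelial markers in the mRNA groups and leukocyte markers in the vesicle groups. Groups are therefore named by their labels below. In preparation 1 libraries the insulin gene Ins2 reached 171 to 2117 counts, and in preparation 2 libraries it had 0. The members differed between preparations by a median of 0.02 to 0.04 on the log2 scale within a group, and by 0.12 to 0.30 at most. Chac1, with few counts in the 4T1 and vesicle groups, was left out of these values there. Nothing in the labels says that the 2 preparations were separate cultures, so the p-values reflect only how far these libraries vary, possibly for technical reasons.

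The 3 control groups carried different starting levels of the module. Compared per kb of exonic length, Hspa5, the ER chaperone BiP, led in DC2.4 Mock at 425 ± 7.87 CPM per kb (SD, n = 2), followed by Phgdh at 361 ± 2.85 and Psat1 at 282 ± 0.650. Phgdh, the first enzyme of serine synthesis, led in 4T1 Mock at 361 ± 0.876 and in EXOmock at 352 ± 5.69. At the other end, Eif2ak3 was lowest in DC2.4 Mock at 2.32 ± 0.287, and Chac1, a glutathione-degrading enzyme, was lowest in 4T1 Mock at 0.549 ± 0.148 and in EXOmock at 1.01 ± 0.229. Of the 41 pairs of neighbours in each order, 14 in DC2.4 Mock, 15 in 4T1 Mock and 15 in EXOmock lay within the sum of their SDs, among them Calr and Pdia3 in EXOmock at 198 ± 4.45 and 196 ± 0.0235.

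**Figure D1:**
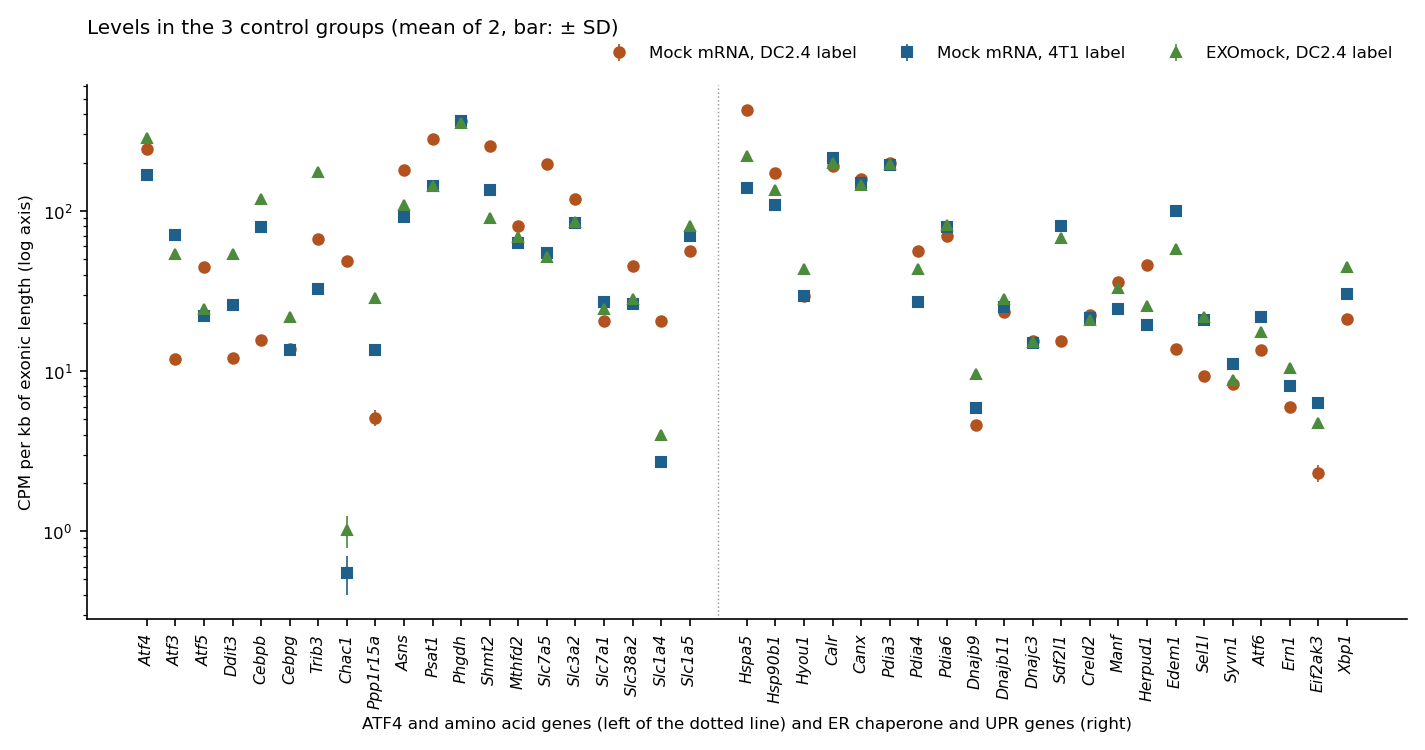
Level of each of the 42 members in the 3 control groups (x axis: gene; y axis, log scale: CPM per kb of exonic length; points: mean of 2 libraries; bars: SD). Chac1 and Slc1a4 sit far lower in 4T1 Mock and EXOmock than in DC2.4 Mock, and Atf3, Cebpb, Sdf2l1 and Edem1 sit higher.

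Between the 2 Mock mRNA groups, edgeR called 17 members higher and 22 lower in 4T1 Mock (40.5% and 42.4% of all genes tested), so most genes of any kind differed. At 2-fold or more, 8 were higher and 10 lower, against 45.8% of all genes. Of the 5 serine, one-carbon and asparagine synthesis genes, Asns, Psat1, Shmt2 and Mthfd2 were lower in 4T1 Mock, and all 4 of the sensors and Xbp1 were higher. The fifth, Phgdh, was called lower (log2 difference -0.08, SE 0.02, edgeR adjusted p = 0.0012), but its CPM of 893 and 903 in DC2.4 Mock and 897 and 900 in 4T1 Mock overlapped and did not differ in mean, so that this call rests on the TMM scaling factors. Slc7a5, the light chain of a large neutral amino acid transporter, stood at 727 and 727 CPM in DC2.4 Mock and 202 and 202 in 4T1 Mock, a log2 difference of -1.92 (SE 0.02). Chac1 had 1423 and 1698 counts in DC2.4 Mock and 13 and 27 in 4T1 Mock. Edem1, a mannosidase-like factor of ER-associated degradation, stood the other way at 86.5 and 90.3 CPM against 633 and 648, a log2 difference of 2.78 (SE 0.03). EXOmock was not tested against 4T1 Mock. In EXOmock, Trib3 averaged 373 ± 2.48 CPM against 69.3 ± 1.55 in 4T1 Mock, Ddit3 92.4 ± 4.08 against 44.1 ± 1.52, and Ppp1r15a 84.1 ± 4.97 against 39.8 ± 1.22. Cell line, culture and treatment cannot be told apart in any of these level differences.

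In the libraries labelled DC2.4, uniSTING mRNA split the module. Genes of amino acid uptake and synthesis fell, most ER chaperones and foldases rose modestly, and a small set of stress factors, Atf3, Ddit3, Ppp1r15a and Atf4, rose. Of the ATF4 and amino acid genes, 4 rose and 15 fell, and 1 did not pass (median log2 fold change -0.18). Of the ER chaperone and UPR genes, 14 rose, 4 fell and 4 did not pass (median 0.13). Among all genes tested, 20.8% rose, 20.9% fell and the median was 0.00, so 41.7% were called. The call rate depends on level: 56.3% of the 9487 genes with a mean of at least 10 CPM were called, as were 37 of the 42 members, which all reach that level. At a mean of at least 50 CPM, 68.2% of genes and 33 of 35 members (94.3%) were called. Changes were small, with 0 members at 2-fold or more (3.65% of all genes). The 2 groups did not overlap for 41 members (69.1% of all genes, not matched for level). In bulk RNA, fewer cells of a type and less RNA per cell cannot be told apart.

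The stress transcription factors moved both ways. Atf3, a stress-induced repressor also known as an early response gene (ENSMUSG00000026628, GRCm39 chr1:190902493-190950236, minus strand), was at 24.8 and 26.6 CPM in Mock and 44.5 and 42.3 with uniSTING. Both treated libraries lay well above both controls, and the log2 fold change was 0.76 (SE 0.06, edgeR adjusted p = 1.07e-07). Atf4 (ENSMUSG00000042406, chr15:80139385-80141742, plus strand) was at 566 and 575 CPM in Mock and 622 and 626 with uniSTING, a log2 fold change of 0.15 (SE 0.02, adjusted p = 3.23e-05). Its groups were separate but close, and the rise was 0.01 (adjusted p = 0.614) when a trend of fold change with gene length over all genes was removed. Ddit3, which codes for CHOP, a factor linked to stress-induced cell death, went from 19.9 and 21.5 to 29.1 and 25.4 CPM (log2 fold change 0.40, SE 0.08, adjusted p = 0.000604). Of its exonic bases, 10.9% are shared with Mars on the opposite strand, and the counting did not use strand. Atf5, an ATF4 relative, fell from 86.8 and 89.6 to 64.5 and 65.1 CPM (-0.43, SE 0.04, adjusted p = 1.96e-06). Cebpb and Cebpg, dimer partners of ATF4, also fell, by 0.32 and 0.13 on the log2 scale. Cebpb did not pass without uniSTING preparation 2 (adjusted p = 0.0747), and 20.7% of its exonic bases are shared with Tmem189. Cebpg did not pass with DESeq2 (adjusted p = 0.0526) or without either of 2 libraries.

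Feedback genes of the response did not follow one direction. Ppp1r15a (GADD34), which guides a phosphatase to eIF2, was at 16.2 and 13.8 CPM in Mock and 19.3 and 19.7 with uniSTING, with no overlap and a log2 fold change of 0.41 (SE 0.09, adjusted p = 0.00141). Trib3, a pseudokinase that restrains ATF4 and CHOP, fell from 139 and 145 to 109 and 108 CPM (-0.38, SE 0.04, adjusted p = 1.07e-06). Chac1 had a log2 fold change of -0.10 (adjusted p = 0.302), but passed as lower with the length trend removed (-0.29, adjusted p = 0.00383).

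All 6 amino acid transporters fell, with a median log2 fold change of -0.41. Slc7a5 (ENSMUSG00000040010, chr8:122607889-122634433, minus strand) was at 727 and 727 CPM in Mock and 439 and 434 with uniSTING, the most distant pair of groups among the members that fell. Its log2 fold change was -0.72 (SE 0.02, adjusted p = 1.64e-11). Slc7a1, the cationic amino acid transporter CAT1, went from 236 and 240 to 149 and 152 CPM (-0.64, SE 0.03, adjusted p = 2.13e-09). Slc1a5, a glutamine transporter, went from 238 and 233 to 172 and 172 CPM (-0.43, SE 0.03, adjusted p = 1.07e-08). The fall of the heavy chain partner of Slc7a5, Slc3a2, was smaller at -0.15, as was that of the system A transporter Slc38a2 at -0.12, which went to 0.0026 (adjusted p = 0.947) with the length trend removed. All 5 synthesis genes fell as well: the serine-to-glycine enzyme Shmt2 by 0.36 on the log2 scale, asparagine synthetase Asns by 0.27, the folate enzyme Mthfd2 by 0.21, Phgdh by 0.11 and Psat1 by 0.04. Psat1 was at the threshold (adjusted p = 0.0498) and no longer passed without any one of the 4 libraries, with upper-quartile scaling (adjusted p = 0.248), with no filter on low counts (0.401) or with preparation number as a replicate block (0.0671).

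Most ER chaperones and foldases rose, in small steps. Hspa5 (ENSMUSG00000026864, chr2:34661982-34667559, plus strand) was at 1821 and 1774 CPM in Mock and 2025 and 2026 with uniSTING. Both treated libraries were above both controls, with a log2 fold change of 0.19 (SE 0.02, adjusted p = 3.89e-07). Calr, the lectin chaperone calreticulin, went from 548 and 554 to 693 and 703 CPM (0.36, SE 0.02, adjusted p = 3.77e-09). Sdf2l1, an ER-resident partner of BiP, had the highest fold change of the list, from 17.8 and 16.1 to 24.1 and 24.6 CPM (0.55, SE 0.08, adjusted p = 6.16e-05). Manf, a secreted ER stress factor, went from 126 and 126 to 149 and 148 CPM (0.25, SE 0.03, adjusted p = 4.02e-06). It shares 9.25% of its exonic bases with Dcaf1 on the opposite strand. The co-chaperone Dnajb9 rose from 12.1 and 11.2 to 15.5 and 13.1 CPM (0.31, SE 0.11, adjusted p = 0.0338). All 3 disulfide isomerases, all 3 HSP40 co-chaperones and all 3 small ER-resident proteins passed in edgeR. Of these 9, only Pdia3, Sdf2l1 and Manf also passed with DESeq2. DESeq2 gave adjusted p of 0.197 for Pdia4, 0.118 for Pdia6, 0.0784 for Dnajb9, 0.0719 for Dnajb11, 0.136 for Dnajc3 and 0.0752 for Creld2, and each of these 6 lost its edgeR call without at least 1 library. With the length trend removed, Pdia4 (-0.03, adjusted p = 0.39), Pdia6 (0.569), Dnajb9 (0.173), Dnajb11 (0.169) and Creld2 (0.922) did not pass. Hyou1 did not pass with DESeq2 (adjusted p = 0.193) or without any one library. Canx, calnexin, did not pass in edgeR (-0.02, adjusted p = 0.422) and was called lower with the length trend removed (-0.05, adjusted p = 0.0261). Syvn1 did not pass in edgeR either (-0.05, adjusted p = 0.505). Canx and Syvn1 both hold an ERSE printed above, and a link between the ERSE and the response was not tested.

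Of the 4 degradation genes, Herpud1 and Sel1l fell and 0 rose, and of the sensors and Xbp1, Ern1 and Atf6 fell and Xbp1 rose. Ern1 fell from 50.1 and 46.6 to 34.1 and 33.4 CPM (-0.50, SE 0.05, adjusted p = 3.84e-06). Atf6 fell from 125 and 123 to 102.6 and 106 CPM (-0.23, SE 0.04, adjusted p = 0.000341), and did not pass with the length trend removed (-0.09, adjusted p = 0.0713). Both sensors were lower in each treated library than in either control. Herpud1 and Sel1l, membrane components of the degradation complex, fell from 106 and 109 to 97.3 and 94.8 CPM and from 78.7 and 81.4 to 69.8 and 74.2 CPM. Their log2 fold changes were -0.15 (adjusted p = 0.00796) and -0.13 (adjusted p = 0.0131). Each lost its call without either of 2 libraries, and Sel1l also with the length trend removed (-0.02, adjusted p = 0.708). Xbp1 (ENSMUSG00000020484, chr11:5470659-5475893, plus strand) was at 70.1 and 67.2 CPM in Mock and 75.0 and 74.3 with uniSTING (0.14, SE 0.04, adjusted p = 0.00582). It did not pass with DESeq2 (adjusted p = 0.0605), with the length trend removed (0.07, adjusted p = 0.14) or without Mock preparation 2. Counts per gene do not separate its spliced form, the one that is active. Eif2ak3 overlapped between groups (15.2 and 12.7 against 17.1 and 14.4 CPM, adjusted p = 0.154).

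Other genes of the same pathways were counted in 2 further lists. Of all genes tested, 20.8% rose and 20.9% fell, but these shares were not matched for level, on which the call rate depends. Of 40 tested genes in a further list of the integrated stress response, 6 rose and 22 fell, and of the 12 tRNA synthetases in it, which charge tRNAs with amino acids, 0 rose and 10 fell. Eprs (log2 fold change -0.49), Iars (-0.45) and Lars (-0.40) had the smallest adjusted p among the latter, and Aldh18a1, of proline synthesis, fell by 0.46. Ddit4, a stress-induced inhibitor of mTORC1, rose by 0.71. Of 40 tested genes in a further list of the UPR, 20 rose and 7 fell, among them the translocon subunit Sec61g (0.92), the oxidase Ero1l (0.59) and the disulfide isomerase P4hb (0.32), all higher. The leukocyte marker sum was 180 ± 12.03 CPM in Mock and 207 ± 13.1 with uniSTING, and the epithelial sum 6001 ± 46.4 and 6292 ± 14.6. Most of the leukocyte sum lay in Lcp1, at 114 ± 4.39 and 136 ± 1.71 CPM. Epithelial markers moved both ways, with Krt19 higher (66.3 ± 1.67 and 131 ± 3.41) and Cdh1 lower (630 ± 7.56 and 542 ± 0.245). The part of the markers in the result was not tested. The count of ER chaperone and UPR genes that rose was 14, but 8 with the length trend removed, 6 with DESeq2, and 9 and 8 without Mock preparation 1 and preparation 2; the count that fell was 2 without Mock preparation 2.

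**Figure D2:**
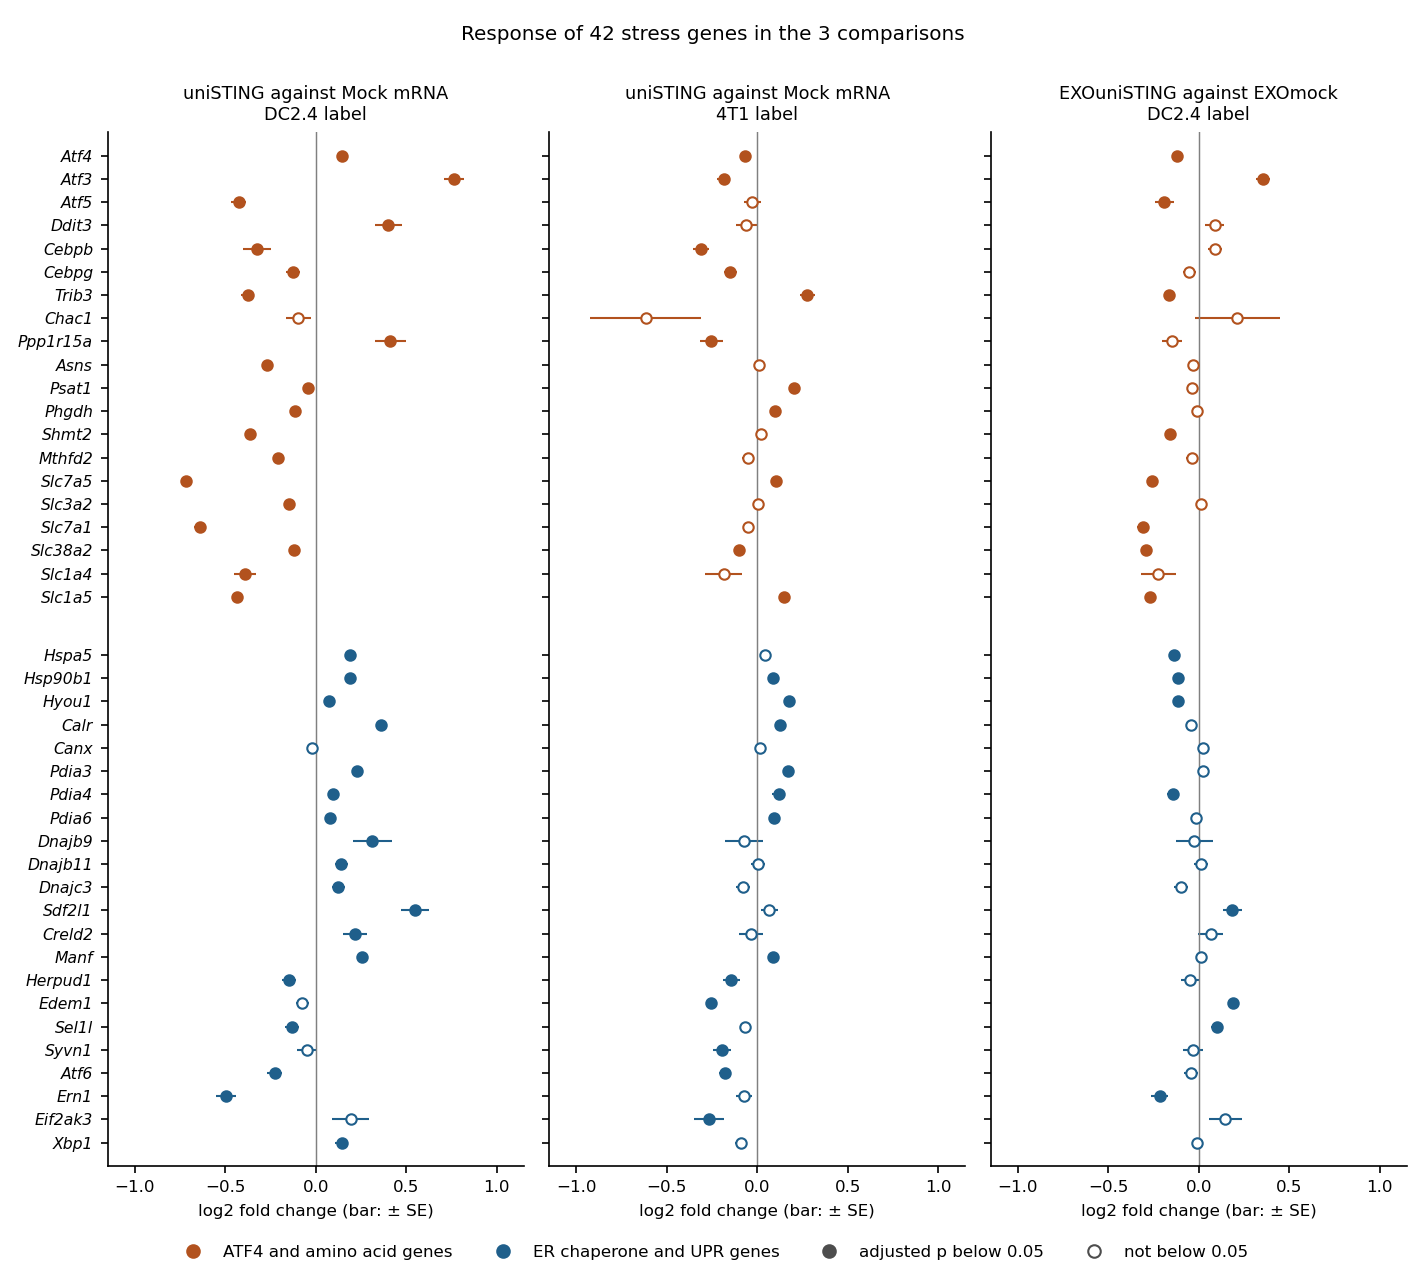
Log2 fold change of each member in the 3 comparisons (points: edgeR estimate; bars: SE; filled: adjusted p below 0.05; brown: ATF4 and amino acid genes; blue: ER chaperone and UPR genes). Under the DC2.4 mRNA label the transporters from Slc7a5 to Slc1a5 lie left of 0 and most chaperones right of it; in the vesicle comparison 4 transporters and Hspa5 lie left.

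In the libraries labelled 4T1, uniSTING mRNA moved fewer members and by less. Of the 6 stress transcription factors, 4 fell and 0 rose. Hsp90b1, Hyou1 and Calr rose, as did all 3 disulfide isomerases, while Hspa5 and Canx did not pass. Of the 4 degradation genes, Edem1, Syvn1 and Herpud1 fell and Sel1l did not pass, and of the 3 sensors, Atf6 and Eif2ak3 fell and Ern1 did not pass. Of the ATF4 and amino acid genes, 5 rose, 6 fell and 9 did not pass (median log2 fold change -0.05), and of the ER chaperone and UPR genes 7 rose, 5 fell and 10 did not pass (median -0.01). Of all genes tested 12.6% rose and 15.7% fell, 28.3% in all, with a median of -0.01. At a mean of at least 10 CPM, 39.1% of genes and 23 of the 42 members were called. At a mean of at least 50 CPM the shares were closer, with 51.2% of genes and 20 of 35 members (57.1%) called. Of the members, 0 reached 2-fold (1.81% of all genes). Groups did not overlap for 35 members (63.6% of all genes, not matched for level).

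Among transcription factors, 0 rose and 4 of 6 fell. Cebpb was at 118 and 120 CPM in Mock and 95.3 and 100 with uniSTING, a log2 fold change of -0.31 (SE 0.04, adjusted p = 1.00e-04). Atf3 went from 155 and 150 to 136 and 137 CPM (-0.18, SE 0.04, adjusted p = 0.00144), and Cebpg from 76.1 and 74.9 to 71.7 and 67.5 (-0.15, adjusted p = 0.0091), though not without uniSTING preparation 2 (adjusted p = 0.118). For Atf4, at 395 and 395 against 382 and 387 CPM, the groups were separate and the fall was small (-0.07, SE 0.02, adjusted p = 0.0261). It did not pass with upper-quartile scaling (-0.04, adjusted p = 0.107), with no filter (0.0582), with only the libraries compared (0.0792) or without any of 3 of the 4 libraries. Ddit3 did not pass, at 45.1 and 43.0 against 42.2 and 43.7 CPM (-0.06, adjusted p = 0.507), and its groups overlapped. Ppp1r15a fell from 38.9 and 40.7 to 33.0 and 35.1 CPM (-0.25, SE 0.06, adjusted p = 0.00934), but did not pass without Mock preparation 2 or uniSTING preparation 1.

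Trib3 rose, from 68.2 and 70.4 to 82.7 and 88.5 CPM (0.28, SE 0.04, adjusted p = 0.00015). Psat1, of serine synthesis, rose from 614 and 604 to 719 and 711 CPM (0.20, SE 0.02, adjusted p = 9.34e-07), and Phgdh by 0.10. Slc1a5 rose from 291 and 291 to 325 and 332 CPM (0.15, SE 0.02, adjusted p = 0.000374) and Slc7a5 from 202 and 202 to 226 and 217 CPM (0.10, SE 0.02, adjusted p = 0.00548). In each of these 5 genes both treated libraries were above both controls. Slc38a2 fell by 0.10, though not without either of 2 libraries, and the other 3 transporters did not pass.

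Hyou1, an ER chaperone of the HSP110 type, rose from 212 and 216 to 244 and 249 CPM (0.18, SE 0.03, adjusted p = 0.00019). Pdia3, a disulfide isomerase that works with calreticulin, rose from 602 and 615 to 693 and 701 CPM (0.17, SE 0.02, adjusted p = 2.85e-05). Calr rose from 619 and 613 to 690 and 679 CPM (0.12, SE 0.02, adjusted p = 0.000276), and Pdia4 from 64.6 and 63.9 to 70.8 and 71.3 (0.12, SE 0.03, adjusted p = 0.0191). Pdia4 did not pass with DESeq2 (adjusted p = 0.162) and Pdia6 was at 0.0502 there, and Pdia4 lost its edgeR call without any of 3 libraries and Pdia6 without either of 2. Hspa5 did not pass at 591 and 577 against 619 and 609 CPM (0.04, adjusted p = 0.0684), although its groups did not overlap; with upper-quartile scaling it passed at 0.07 (adjusted p = 0.00977). On the lower side, Edem1 went from 633 and 648 to 546 and 547 CPM (-0.26, SE 0.02, adjusted p = 4.54e-06). Eif2ak3 went from 39.0 and 37.3 to 32.9 and 31.6 CPM (-0.27, SE 0.08, adjusted p = 0.0273), and did not pass without any one of the 4 libraries (adjusted p from 0.0745 to 0.15). Syvn1, the ubiquitin ligase of the degradation complex, went from 53.3 and 53.5 to 49.7 and 45.6 CPM (-0.20, SE 0.05, adjusted p = 0.00846), and Atf6 from 204 and 195 to 177 and 182 (-0.18, SE 0.03, adjusted p = 0.00165). Syvn1 lost its call without preparation 2 of either group. Herpud1 (-0.14, adjusted p = 0.0397) lost its call without any one library and with DESeq2 (adjusted p = 0.102), as did Manf (0.09, adjusted p = 0.0469) without 3 of the 4 libraries and with DESeq2 (adjusted p = 0.288). Xbp1 was at 99.3 and 95.7 against 93.6 and 92.7 CPM (-0.09, adjusted p = 0.0526) and passed with the length trend removed (-0.13, adjusted p = 0.00922).

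In the same further pathway lists, of the sizes given above, 6 integrated stress response genes rose and 15 fell, and 11 UPR genes rose and 6 fell. Over all genes tested, 12.6% rose and 15.7% fell, shares again not matched for level. Eif2s1, a subunit of eIF2, rose by 0.36, the serine enzyme Psph by 0.43, the isomerase Ppib by 0.30 and P4hb by 0.22. Nupr1, a stress-induced chromatin protein, had a log2 fold change of -0.49, Aldh1l2 of -0.29, Gpt2 of -0.22 and the tyrosyl tRNA synthetase Yars of -0.17. Among the tRNA synthetases, 1 rose and 7 fell. The leukocyte sum was 10961 ± 6.26 CPM in Mock and 10583 ± 5.10 with uniSTING. Single markers moved both ways within this sum. Cd68 was lower (1251 ± 20.7 and 965 ± 13.1 CPM), as was Laptm5 (737 ± 10.4 and 550 ± 10.8). Lyz2 was higher (means of 2856 and 3273 CPM), as was Coro1a (314 ± 6.07 and 401 ± 2.43). The part of these markers in the result was not tested. The ER chaperone and UPR genes that rose numbered 4 with DESeq2, 4 without Mock preparation 1 and 4 without uniSTING preparation 2, and those that fell numbered 2 to 3 without any one of the 4 libraries. Without Mock preparation 2, 3 ATF4 and amino acid genes fell.

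**Figure D3:**
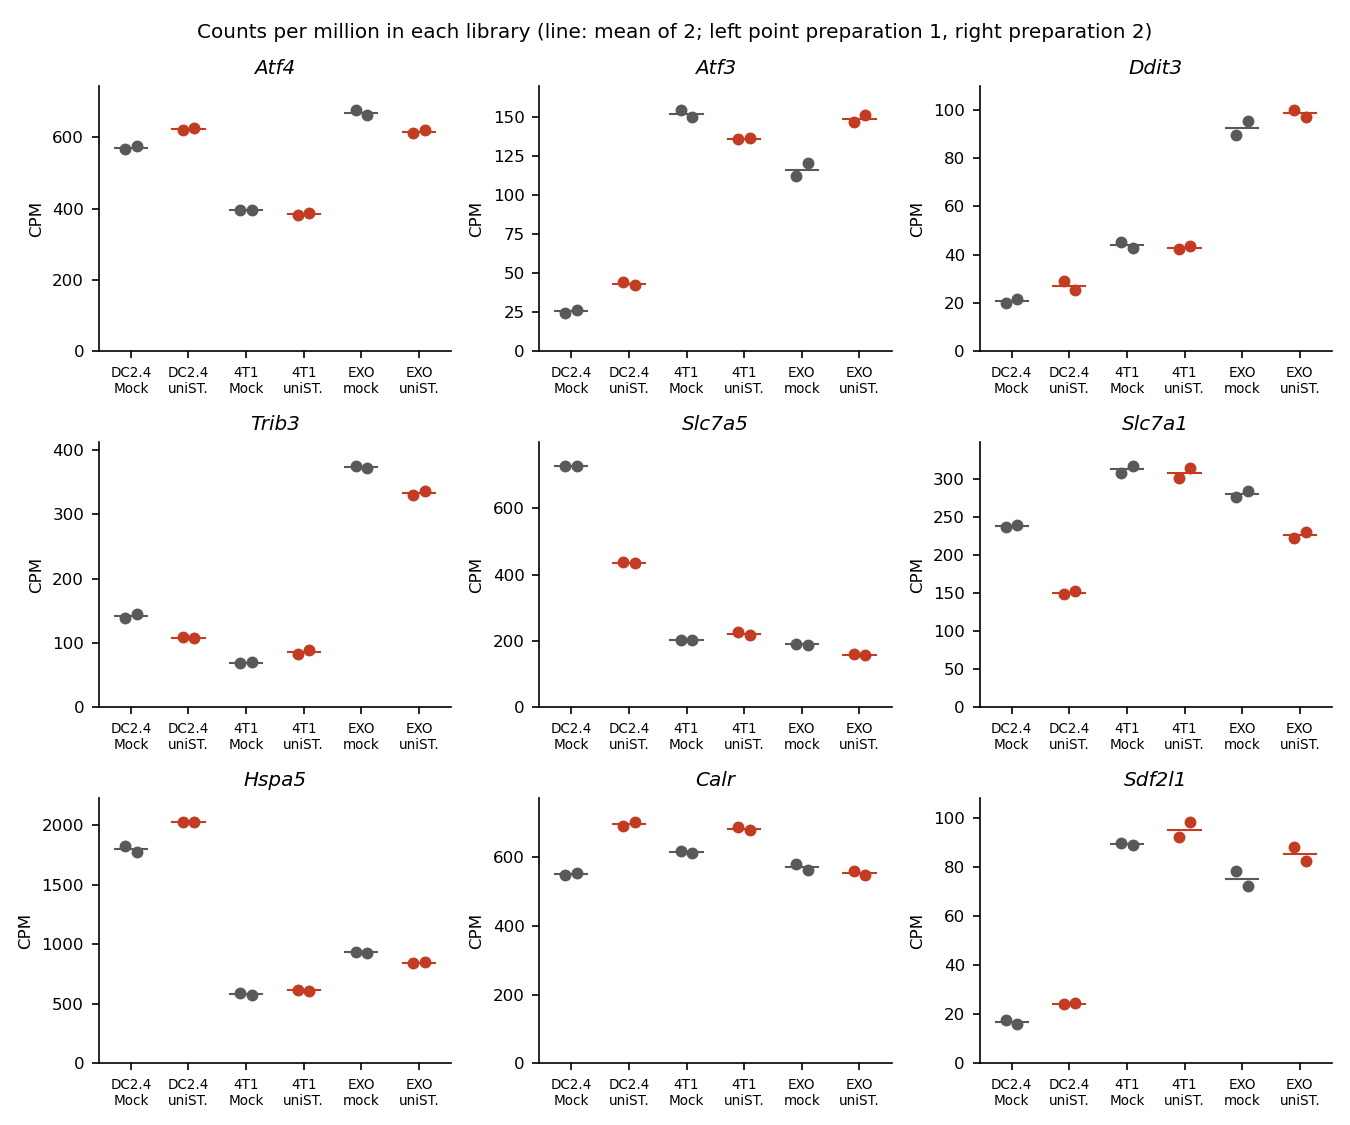
CPM of 9 members in each of the 12 libraries (x axis: group; y axis: CPM from 0; points: libraries, preparation 1 on the left; lines: mean of 2). Slc7a5 runs from 727 in DC2.4 Mock to 434 and 439 with uniSTING mRNA, and lies between 157 and 226 in all other groups.

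Vesicles from uniSTING-treated 4T1 cells left 25 of the 42 members without a call, and 13 of the 17 that passed fell. Of the 6 amino acid transporters 4 were lower, as were 3 chaperones of the HSP70 and HSP90 kind, while Atf3 and the degradation factor Edem1 were higher. Of the ATF4 and amino acid genes 1 rose, 8 fell and 11 did not pass (median log2 fold change -0.09), and of the ER chaperone and UPR genes 3 rose, 5 fell and 14 did not pass (median -0.02). In all genes tested 7.96% rose and 8.14% fell, 16.1% in all, with a median of 0.00. At a mean of at least 10 CPM, 22.5% of genes and 17 of the 42 members were called, with 0 members at 2-fold (1.20% of all genes). At a mean of at least 50 CPM, 31.0% of genes and 17 of 35 members (48.6%) were called. Groups did not overlap for 31 members (56.2% of all genes, not matched for level).

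Atf3 was at 112 and 121 CPM with EXOmock and 147 and 151 with EXOuniSTING. Both treated libraries were higher, with a log2 fold change of 0.35 (SE 0.04, adjusted p = 4.00e-05). Atf4 went the other way, from 676 and 662 to 611 and 620 CPM (-0.12, SE 0.02, adjusted p = 0.00114), as did Atf5, from 47.3 and 50.4 to 42.01 and 43.6 (-0.19, SE 0.05, adjusted p = 0.0228), although Atf5 did not pass with DESeq2 (adjusted p = 0.107) or without any of 3 of the 4 libraries. Ddit3 did not pass, at 89.5 and 95.3 against 99.9 and 97.2 CPM (0.09, adjusted p = 0.284). Trib3 fell from 375 and 371 to 330 and 336 CPM (-0.16, SE 0.03, adjusted p = 0.00233).

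Of the 6 transporters, 4 fell and 0 rose. Slc7a1 went from 277 and 284 to 222 and 230 CPM (-0.31, SE 0.03, adjusted p = 2.81e-05), and Slc38a2 from 250 and 244 to 204 and 199 (-0.29, SE 0.03, adjusted p = 1.15e-05). Slc1a5 went from 333 and 341 to 282 and 279 CPM (-0.27, SE 0.02, adjusted p = 1.10e-05), and Slc7a5 from 191 and 189 to 161 and 157 (-0.26, SE 0.03, adjusted p = 2.50e-05). No treated library of these 4 genes reached a control. Among synthesis genes only Shmt2 passed, falling by 0.16.

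Hspa5 fell from 933 and 931 to 846 and 847 CPM (-0.14, SE 0.02, adjusted p = 9.57e-05). Its groups were far apart for the size of the change. Hyou1 fell from 316 and 307 to 288 and 286 CPM (-0.12, SE 0.03, adjusted p = 0.00861), Hsp90b1 from 539 and 543 to 498 and 500 (-0.12, SE 0.02, adjusted p = 0.00135) and Pdia4 from 102.9 and 104 to 92.9 and 94.6 (-0.14, SE 0.03, adjusted p = 0.0107). Ern1 fell from 83.6 and 86.2 to 70.7 and 75.1 CPM (-0.22, SE 0.05, adjusted p = 0.00616). Higher values were found for Edem1, from 369 and 374 to 427 and 421 CPM (0.19, SE 0.03, adjusted p = 0.000281). Sdf2l1 rose from 78.4 and 72.2 to 88.3 and 82.7 CPM (0.18, SE 0.05, adjusted p = 0.0312) and Sel1l from 183 and 191 to 199 and 201 (0.10, SE 0.03, adjusted p = 0.0489). Sel1l did not pass without any one of the 4 libraries, with DESeq2 (adjusted p = 0.11) or with no filter. Hyou1, Pdia4 and Sdf2l1 each lost their call without either of 2 libraries and Ern1 without EXOmock preparation 2, Hyou1 also with the length trend removed (adjusted p = 0.0525) and Pdia4 with DESeq2 (adjusted p = 0.105). Xbp1 did not pass, at 142 and 148 against 146 and 143 CPM (-0.01, adjusted p = 0.919).

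In the further lists, 3 integrated stress response genes rose and 10 fell, 7 of them among the 12 tRNA synthetases. Over all genes tested, 7.96% rose and 8.14% fell, shares again not matched for level. Lars had a log2 fold change of -0.37, Iars of -0.19, Eprs of -0.16 and Wars of -0.15. The eIF2 kinase PKR (Eif2ak2), which is also an interferon-induced gene, rose by 0.51 and the stress cytokine Gdf15 by 0.36. Of the 40 tested UPR genes in that list, 2 rose, Sil1 by 0.37 and Edem2 by 0.19, and 0 fell. The leukocyte sum was 15690 ± 72.3 CPM with EXOmock and 13182 ± 547 with EXOuniSTING. Most of this difference lay in a single marker, Lyz2, at 8625 ± 17.5 and 6157 ± 549 CPM. The other leukocyte markers moved both ways, with Cd53 lower (826 ± 7.43 and 755 ± 7.33) and Cd68 higher (847 ± 16.2 and 969 ± 5.70). The part of the marker difference in the result was not tested. The 3 ER chaperone and UPR genes that rose became 1 without EXOmock preparation 2 or EXOuniSTING preparation 1, and the 5 that fell became 3 without EXOmock preparation 2.

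Whether members answered uniSTING mRNA differently under the 2 labels was tested as a difference of fold changes, 4T1 label minus DC2.4 label. The difference was positive for 13 members and negative for 13 (15.1% and 16.0% of all genes, not matched for level). By list, it was positive for 11 and negative for 4 of the ATF4 and amino acid genes, and positive for 2 and negative for 9 of the ER chaperone and UPR genes. All 5 synthesis genes and 4 of the 6 transporters had a positive difference. Slc7a5 differed by 0.82 (SE 0.03, edgeR adjusted p = 3.8e-10), since it fell under the DC2.4 label and rose under the 4T1 label. Atf3 differed by -0.95 (SE 0.07, adjusted p = 1.4e-07), having risen under the DC2.4 label and fallen under the 4T1 label, and Trib3 by 0.65 (SE 0.05, adjusted p = 5.5e-07), with the directions exchanged. None of the 3 disulfide isomerases passed, with estimates from -0.06 to 0.02. Because the markers went against both labels, this difference is one between libraries labelled 4T1 and libraries labelled DC2.4.

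The vesicle response and the mRNA response under the 4T1 label were compared in the same way, since both sets of libraries carried leukocyte markers. The difference, vesicle minus mRNA, was positive for 5 members and negative for 15 (15.0% and 13.0% of all genes, not matched for level). It was negative for 8 ATF4 and amino acid genes and 7 ER chaperone and UPR genes. Slc1a5 differed by -0.42 (SE 0.03, adjusted p = 1.4e-06), Trib3 by -0.44 (SE 0.05, adjusted p = 2.0e-05) and Hyou1 by -0.29 (SE 0.04, adjusted p = 5.2e-05). Positive differences were found for Atf3 at 0.54 (SE 0.05, adjusted p = 5.1e-06), Edem1 at 0.45 (SE 0.04, adjusted p = 1.1e-06), Eif2ak3 at 0.41, Cebpb at 0.40 and Sel1l at 0.17. The treatments also differed in agent and possibly in time, and the libraries in cell label and control levels. Trib3, for example, was at 32.6 ± 0.731 CPM per kb in 4T1 Mock and 176 ± 1.16 in EXOmock. None of these can be told apart from the difference in response. Without EXOmock preparation 1, 3 members had a positive difference.

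**Figure D4:**
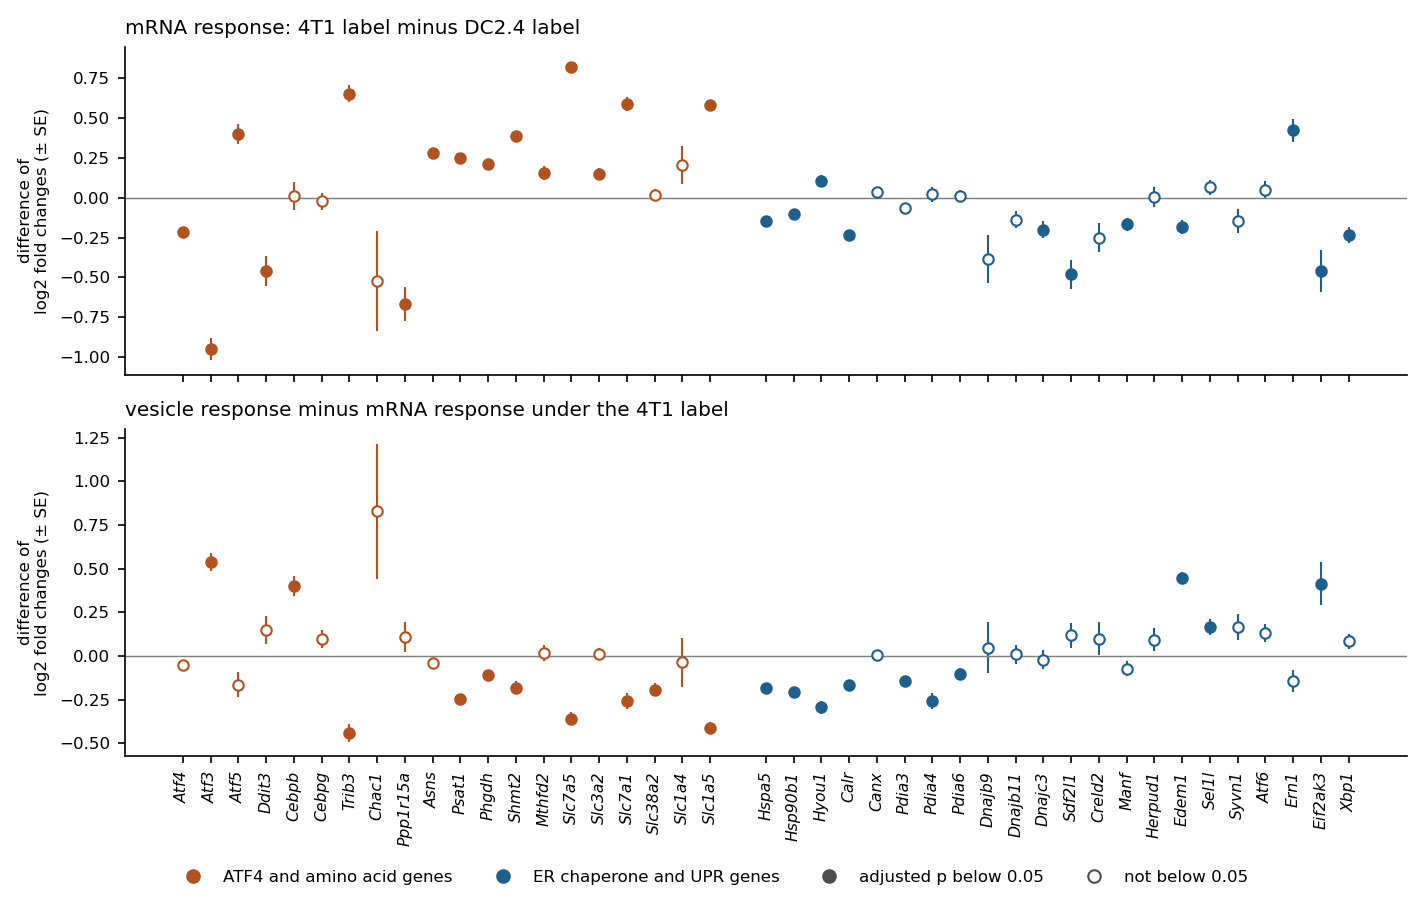
Differences of log2 fold changes for each member (upper panel: 4T1 label minus DC2.4 label; lower panel: vesicle minus mRNA under the 4T1 label; bars: SE; filled: adjusted p below 0.05). In the upper panel the synthesis genes and 4 transporters lie above 0 and Atf3, Ddit3 and Ppp1r15a below it; in the lower panel Atf3, Cebpb and Edem1 lie above 0.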

How the data were processed

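Each library came as a table of raw read counts per gene, which the authors deposited and which featureCounts (Subread 2.0.1) made, per the file headers, from an Ensembl release 103 annotation of GRCm39. HISAT2 and GRCm39 are named in the submitters' processing notes; the version of HISAT2 and any trimming are not given in the sources used here. The header command sets no strand, so genes that overlap on opposite strands were not told apart. Hsp90b1, for example, shares 12.4% of its exonic bases with 1810014B01Rik in this way. Close copies of the members elsewhere in the genome were not searched.

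The 42 members and all lists were chosen with earlier results of these data known. Counts were tested with edgeR 4.0.16 (quasi-likelihood F test, TMM factors from 0.949 to 1.04, filterByExpr, 1 mean for each of 6 groups over all 12 libraries, Benjamini-Hochberg over 14863 genes, threshold 0.05), in R 4.3.3, after the script was tested on simulated data. CPM were computed over library totals, so a CPM ratio can differ slightly from the fitted fold change. The biological coefficient of variation was 3.05%. Counts of genes per library ranged from 17174 to 18661, and limits from counts cover counting error only. Values in each library are given for Atf4, Ddit3, Hspa5 and Xbp1, and for up to 4 members with the largest rise and fall per list and comparison, among called members whose higher group has 5 CPM or more; of the other pathway genes, the text names up to 4 rising and 4 falling by smallest adjusted p. Values of other members were added after they were seen. Alternatives were DESeq2 1.42.0, limma-voom 3.58.1, other size factors, no filter, only the libraries compared, a replicate block, removal of a length trend (loess, span 0.5) and leaving out each library; each preparation alone, with no test, was added after seeing the data. Promoter letters came from RefSeq windows.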

Additional observations from a re-analysis of the deposited data

Results flagged for a closer look

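These members responded differently in pairs of comparisons, by the edgeR test of the difference itself. For uniSTING mRNA, 4T1 label minus DC2.4 label, the difference of log2 fold changes was -0.21 for Atf4, -0.95 for Atf3, 0.40 for Atf5, -0.46 for Ddit3, 0.65 for Trib3 and -0.67 for Ppp1r15a. For synthesis genes it was 0.28 for Asns, 0.25 for Psat1, 0.21 for Phgdh, 0.38 for Shmt2 and 0.15 for Mthfd2. For transporters it was 0.82 for Slc7a5, 0.15 for Slc3a2, 0.59 for Slc7a1 and 0.58 for Slc1a5. For chaperones and small ER proteins it was -0.15 for Hspa5, -0.10 for Hsp90b1, 0.10 for Hyou1, -0.24 for Calr, -0.20 for Dnajc3, -0.48 for Sdf2l1 and -0.17 for Manf. For degradation and sensor genes it was -0.18 for Edem1, 0.42 for Ern1, -0.46 for Eif2ak3 and -0.23 for Xbp1.

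For vesicles minus mRNA under the 4T1 label, the difference was 0.54 for Atf3, 0.40 for Cebpb, -0.44 for Trib3, -0.24 for Psat1, -0.11 for Phgdh and -0.18 for Shmt2. Transporters gave -0.36 for Slc7a5, -0.26 for Slc7a1, -0.19 for Slc38a2 and -0.42 for Slc1a5. Chaperones and isomerases gave -0.18 for Hspa5, -0.20 for Hsp90b1, -0.29 for Hyou1, -0.16 for Calr, -0.14 for Pdia3, -0.26 for Pdia4 and -0.10 for Pdia6. Degradation and sensor genes gave 0.45 for Edem1, 0.17 for Sel1l and 0.41 for Eif2ak3.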

How the results depend on the processing

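Changes of the members were small, and with 2 libraries a group many calls rest on narrow margins: 13 members under the DC2.4 mRNA label, 10 under the 4T1 label and 6 in the vesicle comparison lost their call without one of the libraries. All called members kept their direction in preparation 1 alone and in preparation 2 alone. That is no separate check, since the same libraries gave the calls and the groups of every called member did not overlap in CPM. The cause of the changes below was not tested. Under the DC2.4 mRNA label, the ER chaperone and UPR genes that rose went from 14 to 8 with the length trend removed and 6 with DESeq2. Under the 4T1 label, DESeq2 gave 4 in place of 7, and 1203 in place of 1878 for all genes that rose. For vesicles, all genes that rose went from 1183 to 1792 with the length trend removed, and all that fell from 1210 to 725 with DESeq2.

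Leaving out each library in turn gave 8 to 12 ER chaperone and UPR genes that rose and 2 to 4 that fell under the DC2.4 mRNA label. Under the 4T1 label it gave 4 to 6 that rose and 2 to 3 that fell, 3 to 5 ATF4 and amino acid genes that fell, and 1480 to 1808 genes in all that fell (1480 without Mock preparation 2). For vesicles it gave 1 to 2 ER chaperone and UPR genes that rose and 3 to 4 that fell, with 603 to 769 and 691 to 763 for all genes, below the full counts without each of the 4 libraries. Vesicle minus mRNA differences were positive for 3 to 5 members.

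With the length trend removed, 2 called members changed sign under the DC2.4 mRNA label, Slc38a2 to 0.0026 and Pdia4 to -0.033, neither passing. The other sign changes were of members that had not passed. Under the 4T1 label these were Asns (-0.034) and Shmt2 (-0.015) with the length trend removed. Slc3a2 gave -0.025 with that removal, -0.0044 with DESeq2 size factors, -0.0056 with DESeq2 and -0.0025 with no filter, and Dnajb11 gave -0.030, -0.0027, -0.0030 and -0.00077 in that order. For vesicles, Atf6 was 0.0052 with the length trend removed and Phgdh 0.0022 with upper-quartile factors, and Xbp1 was 0.00039 with DESeq2 size factors, 0.0053 with upper-quartile factors and 0.0024 with DESeq2. Leaving out libraries moved Atf5 from -0.079 to 0.023, Shmt2 from -0.0028 to 0.058, Slc3a2 from -0.019 to 0.032, Dnajb11 from -0.026 to 0.051 and Creld2 from -0.11 to 0.040 under the 4T1 label. For vesicles it moved Chac1 from -0.030 to 0.43, Phgdh from -0.030 to 0.0071, Slc3a2 from -0.00095 to 0.025, Dnajb9 from -0.11 to 0.052, Dnajb11 from -0.0057 to 0.028, Manf from -0.0072 to 0.031, Herpud1 from -0.12 to 0.0098, Atf6 from -0.10 to 0.024 and Xbp1 from -0.037 to 0.024.

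The preparation number was used as a replicate block in 1 alternative. The labels do not say what equal numbers share, and same-numbered libraries deviated together in genes of at least 10 CPM (r across genes 0.66, 0.75 and 0.70 in the 3 comparisons; genes are not independent replicates). With the replicate block, 14 ATF4 and amino acid genes fell under the DC2.4 mRNA label in place of 15, as Psat1 no longer passed, and 6 ER chaperone and UPR genes rose under the 4T1 label in place of 7. Manf and Herpud1 no longer passed there, Xbp1 passed (-0.09, edgeR adjusted p = 0.0477), and no member's call changed for vesicles.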
